A study of Mus musculus with 32 samples.

Results

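Described here are 8 genes of fatty acid oxidation in mouse liver: Cpt1a, Cpt2, Acadvl, Acadl, Acadm, Hadha, Hadhb and Ehhadh. They were chosen by name as enzymes of the pathway and matched to the 52636 genes of the count table by symbol. All 8 were found, and all 8 passed the filter on low counts, with 968 to 20668 reads in any library. On GRCm38 the genes lie at chromosome 19, 3322334 to 3385733 (Cpt1a, + strand), chromosome 4, 107903981 to 107923610 (Cpt2, - strand), chromosome 11, 70010183 to 70015411 (Acadvl, - strand) and chromosome 1, 66830839 to 66863277 (Acadl, - strand). Acadm lies at chromosome 3, 153922357 to 153944632 (- strand), Ehhadh at chromosome 16, 21761287 to 21787807 (- strand), and Hadha (30118304 to 30155162, - strand) and Hadhb (30155248 to 30184593, + strand) side by side on chromosome 5. None of the 8 is an enzyme of ketone body synthesis, so ketogenesis is covered only by a separate list of other genes.

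Liver polyadenylated RNA was sequenced from 32 mice in 8 groups of 4. Each group joined a genotype, wild type (WT) or knockout of thyroid hormone receptor beta (KO), with a hormone treatment, phosphate-buffered saline (PBS) or triiodothyronine (T3), and with an injection, oil or carbon tetrachloride (CCl4). All 32 mice, controls included, ate a PTU/LID diet, which blocks synthesis of thyroid hormone, so the PBS groups are mice low in hormone and not normal mice. CCl4, which liver enzymes turn into a toxic radical, was given at 0.4 ul/g 2 times a week for 4 weeks, in 9 injections. T3, the active hormone, was dissolved in the water the mice drank (1 ug/ml) during the final week, and livers were taken for RNA 24 hours after injection 9. The labels give neither strain nor age, nor which exons the knockout removes, and each mouse carries an animal number of its own.

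Long-chain fatty acids enter mitochondria as carnitine esters. CPT1A, on the outer membrane, makes the ester and is the main point of control, and CPT2, on the inner membrane, turns it back into acyl-CoA. An acyl-CoA dehydrogenase then opens each turn of the spiral (ACADVL for very long, ACADL for long and ACADM for medium chains), and the trifunctional protein, made of the HADHA and HADHB subunits, carries out the later steps on long chains. EHHADH, the bifunctional enzyme of peroxisomes, serves chains and dicarboxylic acids handled there. In the liver the acetyl-CoA formed feeds ketone bodies, and both PPAR-alpha and the thyroid hormone receptors, which bind DNA as partners of RXR at repeats of the half-site AGGTCA, are known regulators of the pathway.

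The 4 sequences shown lie before the transcription starts of Acadm, Acadvl and Ehhadh and between Hadha and Hadhb. Acadm and Acadvl had opposite responses to T3 after CCl4 in WT mice, Ehhadh had the widest range over groups, and Hadha and Hadhb start back to back. They are from RefSeq on GRCm38, 5′ to 3′ on the strand of the gene (Hadhb for the shared stretch). Capitals mark the nuclear receptor half-site AGGTCA, the CCAAT box or the GC box GGGCGG, on either strand. Acadm is at chr3:153944644-153944893 (-), Acadvl at chr11:70015429-70015678 (-) and Ehhadh at chr16:21787835-21788084 (-). The stretch between Hadha and Hadhb is at chr5:30155163-30155247 (+), bounded by the ends of the genes in GENCODE. In RefSeq the starts are at 30154980 (Hadha) and 30155253 (Hadhb), with 272 bases between them.
Acadm: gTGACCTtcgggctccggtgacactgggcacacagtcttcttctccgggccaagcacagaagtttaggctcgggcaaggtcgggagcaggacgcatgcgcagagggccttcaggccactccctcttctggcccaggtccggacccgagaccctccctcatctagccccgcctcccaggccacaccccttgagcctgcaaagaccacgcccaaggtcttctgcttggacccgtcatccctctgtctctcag
Acadvl: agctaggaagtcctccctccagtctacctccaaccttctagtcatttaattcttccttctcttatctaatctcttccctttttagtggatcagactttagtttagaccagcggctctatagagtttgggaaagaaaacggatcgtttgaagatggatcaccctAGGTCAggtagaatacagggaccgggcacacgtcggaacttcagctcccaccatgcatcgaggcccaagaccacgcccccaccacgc
Ehhadh: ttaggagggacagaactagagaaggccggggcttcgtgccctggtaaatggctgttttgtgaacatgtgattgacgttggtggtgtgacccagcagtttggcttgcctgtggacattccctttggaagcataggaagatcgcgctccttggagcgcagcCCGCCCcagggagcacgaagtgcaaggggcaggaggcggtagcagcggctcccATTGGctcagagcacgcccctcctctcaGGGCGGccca
Hadha-Hadhb: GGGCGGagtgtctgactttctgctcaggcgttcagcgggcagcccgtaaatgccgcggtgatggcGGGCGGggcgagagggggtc
In the 250 bases before the RefSeq start, AGGTCA was found for 3 members (Cpt1a, Acadvl and Acadm) and in 14% of 32851 mouse promoters. CCAAT was found for Cpt1a and Ehhadh and in 33.8% of promoters. GGGCGG was found for 6 members, all but Acadvl and Acadm, and in 32.7% of promoters. The stretches searched for Hadha and Hadhb overlap, and the 1 GGGCGG site of Hadha is among the 2 of Hadhb. Exact repeats of AGGTCA on 1 strand with any 1 base between them, the spacing favoured by PPAR-alpha with RXR, or with any 4 bases between them, that favoured by thyroid hormone receptor with RXR, were found for no member, and in 11 and 5 of all promoters. A half-site inside a longer motif was also counted as AGGTCA. A match of letters does not show binding.

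Library totals were 16985162 to 26118055 counts. Muscle transcripts, low elsewhere (at most 1.10 CPM, counts scaled to the effective library size, over 6 muscle genes), summed to 571 CPM in WT PBS CCl4 mouse 2 and to 1014 CPM in KO PBS CCl4 mouse 3, and these libraries lay farthest from their group means, so results that use them are also given without both. Thrb averaged 59.0 ± 7.09 CPM (SD, n = 4) in WT PBS oil and 35.9 ± 4.94 CPM in KO PBS oil, a log2 difference of -0.72 with an adjusted p of 0.167, and differed by -0.70 on T3 and oil (adjusted p = 0.0207). After CCl4, KO differed from WT by -1.01 on T3 (edgeR adjusted p = 9.7e-04). On PBS after CCl4 the genotypes overlapped, at -0.23 (edgeR adjusted p = 0.600). Reads of Thrb thus remained in KO mice, and since the deleted part is not stated, the gene-level count does not check it. The T3 target Dio1, which encodes a deiodinase, went from 0.481 to 1067 CPM with T3 in WT oil mice and from 4.72 to 114 CPM in KO oil mice. Values were scaled by trimmed means of M values (TMM); scaling by library totals alone moved the median of all genes by up to 0.48 on the log2 scale. It moved the share of higher genes among those called by more than 10 percentage points in 14 of 16 comparisons, and those shares are given beside each comparison.

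Per kilobase of transcript, the levels in WT PBS oil livers ran from 311 CPM per kilobase for Acadm through 259 for Ehhadh, 207 for Acadvl, 163 for Acadl, 96.1 for Hadha, 69.2 for Cpt2 and 64.1 for Cpt1a to 45.1 for Hadhb. Hadhb was lowest in every group. Its level is uncertain, since 69.7% of its transcript has a copy of at least 95% identity in the pseudogenes Gm13910 and Gm9108. Acadvl shares 42.9% of its exon bases with Dvl2 on the opposite strand, and as the strand setting of the counting is not given, reads of the pair cannot be told apart. Dvl2 itself was low, at 5.49 to 11.0 CPM by group mean, against 331 to 553 CPM for Acadvl.

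WT PBS CCl4 had the lowest mean of the 8 groups for every member but Acadm, whose lowest mean, 184 CPM, was in WT T3 oil. The highest means lay in KO T3 oil for Cpt1a and Cpt2, in WT T3 CCl4 for Acadvl, in KO PBS oil for Ehhadh and in WT PBS oil for Acadl, Acadm, Hadha and Hadhb. The highest mean was 3.83 times the lowest for Ehhadh and 3.45 times for Acadm, against 1.36 times for Acadl and 1.46 times for Hadha. In order, Acadm averaged 636 CPM in WT PBS oil, 468 in KO PBS oil, 382 in KO T3 oil, 374 in KO PBS CCl4, 369 in WT PBS CCl4, 249.6 in WT T3 CCl4, 222 in KO T3 CCl4 and 184 in WT T3 oil. Its gaps between the first and the second, the second and the third, and the fifth and the sixth of these groups exceeded the SDs of both neighbours. Such a gap was found once each for Acadvl, between KO T3 CCl4 (400.03 CPM) and WT PBS CCl4 (331 CPM), and for Acadl, between KO T3 CCl4 (274 CPM) and WT T3 oil (233 CPM). No other neighbours in the order of any member differed by more than both SDs.

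**Figure D1:**
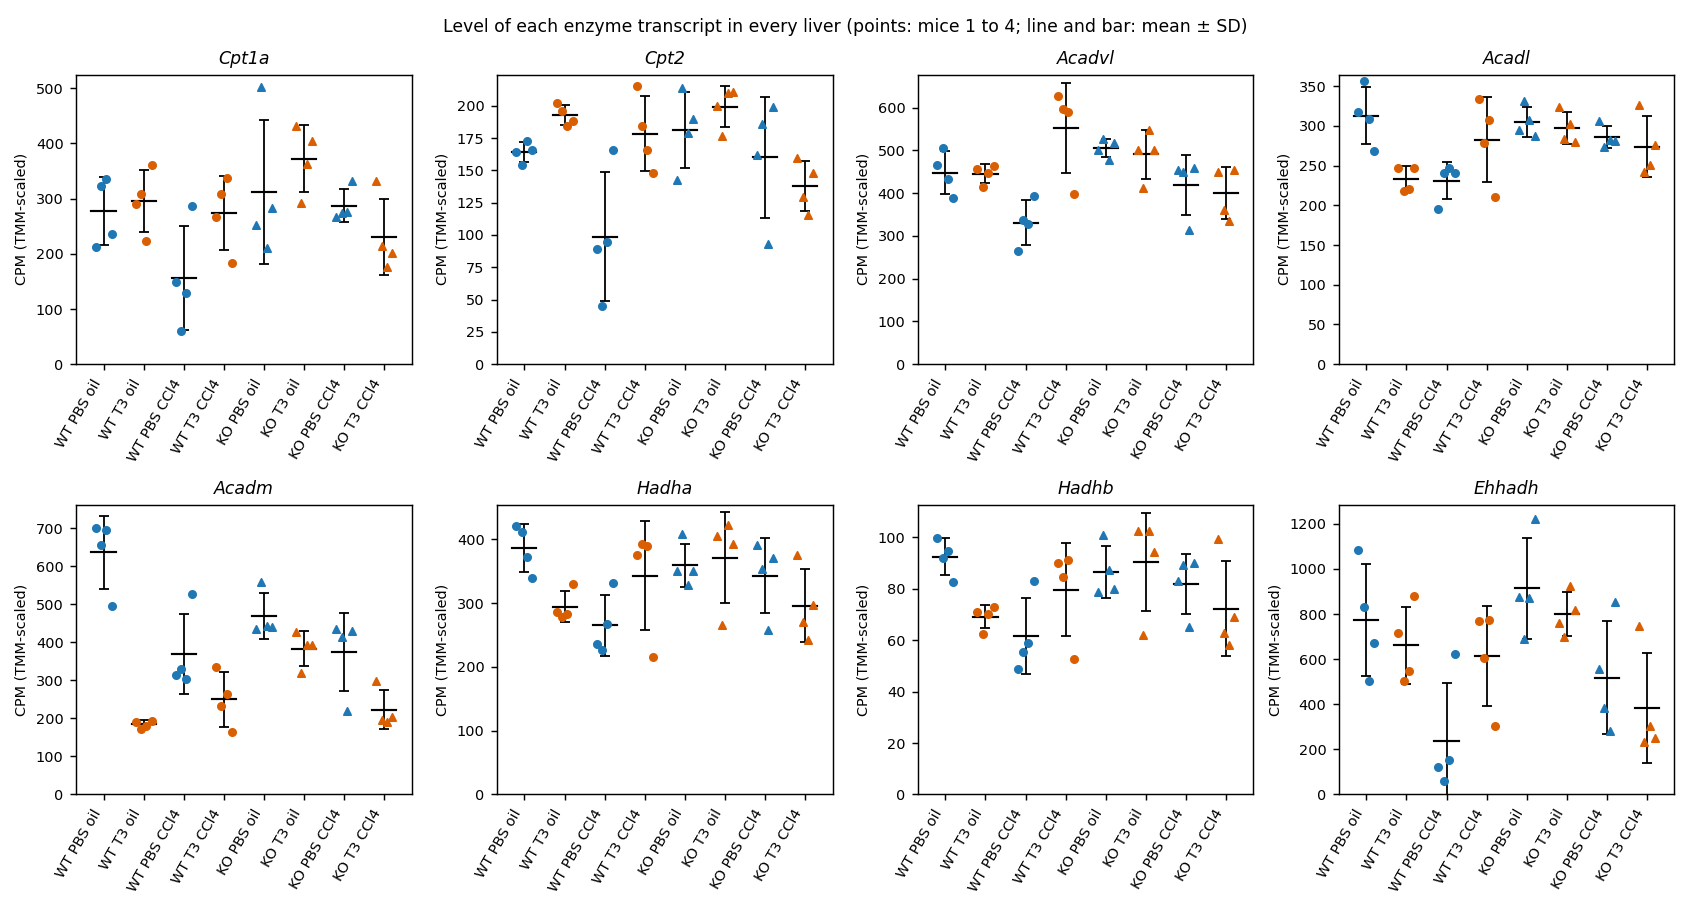
CPM of each of the 8 genes (y axis, linear, TMM scaled) in the 8 groups (x axis), 1 point per mouse (circles WT, triangles KO; blue PBS, orange T3), with bars for the mean ± SD of 4 mice; the lower bar of Ehhadh in WT PBS CCl4 is cut at 0. Acadm sits at 171 to 194 CPM in WT T3 oil, below every other oil-injected mouse, and Ehhadh in WT PBS CCl4 runs from 60.4 to 621 CPM.

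Cpt1a, the gate of the carnitine shuttle, was at 213, 324, 335 and 236 CPM in the 4 WT PBS oil mice and at 148, 60.5, 129 and 286 CPM in the WT PBS CCl4 mice. With T3, WT CCl4 mice had 266, 309, 338 and 183 CPM. Mouse 4 of WT PBS CCl4 stood within the range of both other groups, and the other 3 of its group lay below all mice of both. Cpt1a fell with CCl4 by 0.83 ± 0.31 (log2 ± SE; adjusted p = 0.0293, edgeR quasi-likelihood, Benjamini-Hochberg over 15599 genes, as for all adjusted p-values below) and rose with T3 after CCl4 by 0.81 ± 0.31 (adjusted p = 0.0353). Whether fewer cells or less RNA per cell lies behind such a difference cannot be told apart in bulk liver. In the KO mice Cpt1a was at 253, 503, 211 and 282 CPM (PBS oil), 267, 274, 276 and 332 CPM (PBS CCl4), 431, 292, 362 and 405 CPM (T3 oil) and 332, 214, 177 and 202 CPM (T3 CCl4). These KO ranges overlapped in each comparison, and none was called.

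Cpt2, the second step of the shuttle, was narrow in WT PBS oil at 164, 154, 173 and 166 CPM and wide in WT PBS CCl4 at 89.1, 45, 94.7 and 166 CPM. It fell with CCl4 by 0.73 ± 0.24 (adjusted p = 0.0124), with mouse 4 inside the oil range. WT T3 CCl4 mice had 216, 184, 166 and 148 CPM, overlapping WT PBS CCl4 through mouse 4 alone, and Cpt2 rose with T3 after CCl4 by 0.85 ± 0.24 (adjusted p = 0.00487). In WT T3 oil all 4 mice, at 202, 196, 185 and 188 CPM, were above all WT PBS oil mice, but the difference of 0.23 ± 0.23 was not called (adjusted p = 0.476). KO T3 CCl4 mice, at 160, 129, 116 and 148 CPM, all lay below the KO T3 oil mice at 200, 177, 210 and 211 CPM, with a log2 difference of -0.53 ± 0.24 that was not called (adjusted p = 0.0739). KO PBS mice had 143, 213, 179 and 190 CPM on oil and 162, 186, 93.1 and 199 CPM after CCl4, which overlapped.

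Acadvl, which opens the spiral for very long chains, was at 466, 505, 432 and 388 CPM in WT PBS oil and at 456, 414, 447 and 464 CPM in WT T3 oil. The oil groups thus overlapped, with a log2 difference of -0.01 ± 0.15. After CCl4 the WT PBS mice had 265, 338, 329 and 392 CPM and the WT T3 mice 627, 598, 589 and 398 CPM. All WT T3 mice lay above all WT PBS mice, mouse 4 only just, and Acadvl rose with T3 by 0.74 ± 0.15 (adjusted p = 3.0e-04), a 1.67-fold difference. Dvl2 fell in that comparison, by 0.86 ± 0.27 (adjusted p = 0.0108). In KO mice after CCl4 the PBS values of 455, 449, 315 and 459 CPM and the T3 values of 449, 361, 336 and 454 CPM overlapped, with a log2 difference of -0.07 ± 0.15 and a 95% interval of -0.38 to 0.24. KO oil mice had 501, 527, 479 and 517 CPM on PBS and 501, 413, 548 and 502 CPM on T3, with no call.

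Acadl, the long-chain dehydrogenase, varied least over groups. WT T3 oil mice, at 247, 218, 221 and 247 CPM, all lay below WT PBS oil mice, at 318, 357, 309 and 269 CPM. Acadl fell with T3 by 0.43 ± 0.13 (adjusted p = 0.00949). WT PBS CCl4 mice, at 196, 241, 247 and 240 CPM, also lay below all WT PBS oil mice, and Acadl fell with CCl4 by 0.44 ± 0.13 (adjusted p = 0.00596). With both T3 and CCl4 the WT values of 334, 279, 308 and 210 CPM overlapped those of each other WT group. The 16 KO mice stayed between 242 and 331 CPM.

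Acadm, the medium-chain dehydrogenase, showed the largest T3 response of the 8 on oil. WT PBS oil mice had 699, 655, 696 and 494 CPM, and WT T3 oil mice had 191, 171, 181 and 194 CPM. The groups did not overlap, and Acadm fell by 1.79 ± 0.22 (adjusted p = 2.2e-07), to 0.290 of its level. In KO oil mice the PBS values were 434, 558, 443 and 439 CPM and the T3 values 427, 318, 393 and 392 CPM. These groups did not overlap either (lower without overlap were 10.5% of all genes), but the difference of -0.29 ± 0.21 was not called (adjusted p = 0.373). The T3 response differed between genotypes by 1.49 ± 0.30 (KO minus WT; adjusted p = 0.0013), and with T3 on oil the KO mice were 2.07-fold above WT (adjusted p = 9.7e-04).

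Acadm was also lower with T3 after CCl4. WT CCl4 mice had 315, 330, 304 and 526 CPM on PBS and 336, 232, 265 and 165 CPM on T3. Mouse 1 of the T3 group reached into the PBS range, and Acadm fell by 0.56 ± 0.21 (adjusted p = 0.0348). It was the 1 member that fell where Cpt1a, Cpt2, Acadvl and Ehhadh rose. In KO CCl4 mice the PBS values were 434, 414, 220 and 430 CPM and the T3 values 298, 197, 190 and 203 CPM. Mouse 3 of the PBS group, 1 of the 2 libraries with muscle transcripts, was the only one in the T3 range. The difference was -0.75 ± 0.21 (adjusted p = 0.0543) with it, and -0.94 (adjusted p = 0.00470) without those 2 libraries. CCl4 lowered Acadm by 0.79 ± 0.21 in WT PBS mice (adjusted p = 0.00379), where the groups overlapped. It lowered Acadm by 0.78 ± 0.21 in KO T3 mice (adjusted p = 0.00495), where they did not. The KO PBS groups did not overlap either, but their difference of -0.32 ± 0.21 was not called (adjusted p = 0.250).

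Hadha and Hadhb, the subunits of the trifunctional protein, moved as a pair. Hadha was at 421, 411, 373 and 340 CPM in WT PBS oil and at 235, 226, 268 and 331 CPM in WT PBS CCl4, with no overlap. Hadhb was at 99.9, 92.0, 94.8 and 82.7 CPM and at 48.9, 55.5, 58.9 and 82.9 CPM in the same groups, with mouse 4 of the CCl4 group just inside the oil range. Hadha fell with CCl4 by 0.54 ± 0.18 (adjusted p = 0.0148) and Hadhb by 0.59 ± 0.18 (adjusted p = 0.0106). With T3 in WT oil mice, Hadha at 285, 278, 283 and 330 CPM and Hadhb at 70.8, 62.5, 70.3 and 73.0 CPM lay below all WT PBS oil mice. The differences of -0.39 ± 0.18 (adjusted p = 0.0902) and -0.42 ± 0.18 (adjusted p = 0.0773) were not called. WT T3 CCl4 mice had Hadha at 375, 393, 389 and 216 CPM, so that 3 mice were above all WT PBS CCl4 mice and mouse 4 was below them all. Hadhb was at 90.2, 84.4, 91.1 and 52.7 CPM there, with mice 1 to 3 above all WT PBS CCl4 mice and mouse 4 inside their range. In KO mice the values ran from 243 to 422 CPM for Hadha and from 58.1 to 103 CPM for Hadhb, and no KO comparison of T3 or CCl4 was called for either.

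The pair begins 85 bases apart in the GENCODE annotation, on opposite strands, with the stretch printed above between the starts. Over the 32 libraries their log2 CPM correlated at r = 0.96, and at 0.93 after removing group means, both as a description since the genes share each library's depth and scaling. After removing group means, Acadvl with Hadha was at 0.89 and Acadm with Hadhb at 0.87, so high values were not particular to the pair. The log2 ratio of Hadha to Hadhb counts was 1.91 to 2.27 with a median of 2.06 and an SD of 0.088. The ratio of Ehhadh to Hadha, with an SD of 0.80, ranged from -1.90 to 1.80. The ratio of Cpt1a to Cpt2 lay between, at 0.24 to 1.57 with an SD of 0.31. Ratios within a library do not depend on its scaling. In WT PBS CCl4 the log2 ratio of Ehhadh to Hadha averaged -0.69 ± 1.17 (SD, n = 4), against 0.95 ± 0.39 in WT PBS oil. A two-sided exact permutation test gave a p of 0.0571 (adjusted p = 0.686 over 36 ratio comparisons, of which none was called). The smallest p that 4 against 4 allows in this exact permutation test is 0.0286. After CCl4 the ratio also averaged lower in KO PBS mice, at 0.49 against 1.32 on oil, and in KO T3 mice, at 0.21 against 1.12. Both KO comparisons had the same p of 0.0571 in the two-sided exact permutation test. In WT T3 mice the means were 0.79 after CCl4 and 1.14 on oil, with a p of 0.171 in the two-sided exact permutation test.

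**Figure D2:**
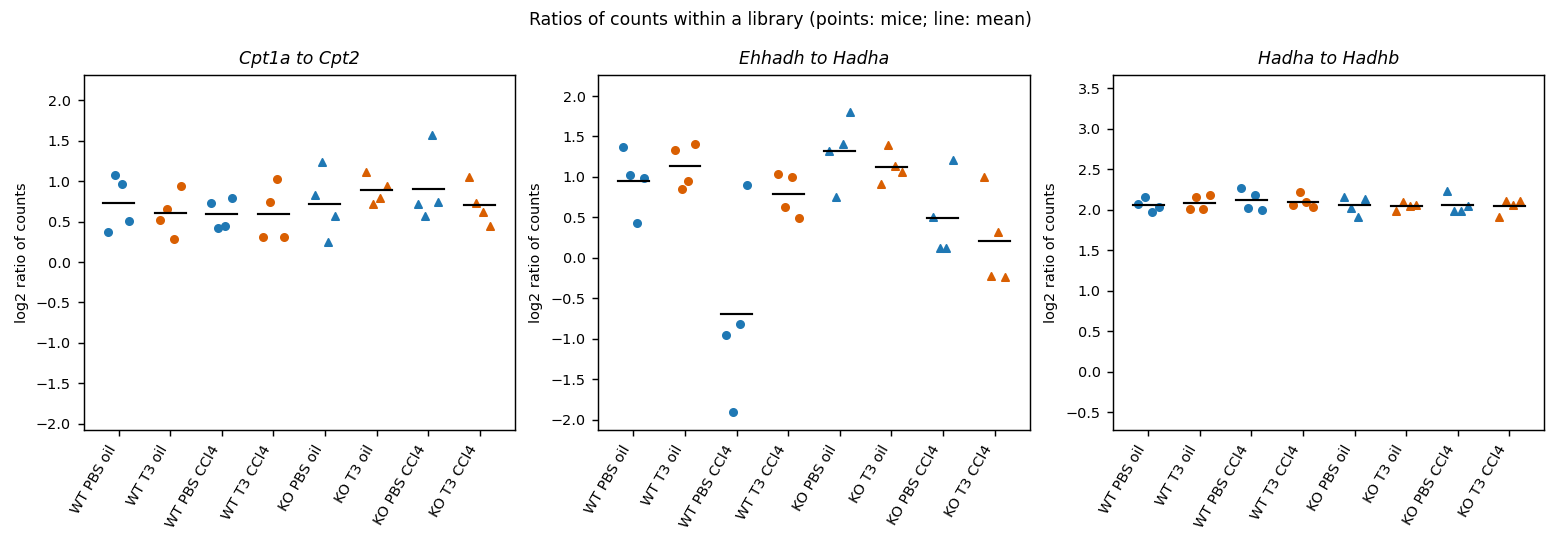
Log2 ratio of counts (y axis) of Cpt1a to Cpt2, Ehhadh to Hadha and Hadha to Hadhb in each of 32 libraries, by group (x axis), 1 point per mouse. Hadha to Hadhb stays between 1.91 and 2.27 in all groups, while Ehhadh to Hadha falls as low as -1.90 in WT PBS CCl4. Group means of Ehhadh to Hadha are lower after CCl4 than on oil in both genotypes, on PBS and on T3.

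Ehhadh, the peroxisomal bifunctional enzyme, varied most. It was at 1084, 833, 502 and 671 CPM in WT PBS oil and at 121, 60.4, 152 and 621 CPM in WT PBS CCl4. In the CCl4 group 3 mice lay far below all oil mice, and mouse 4 lay among them. Ehhadh fell by 1.70 ± 0.49 (adjusted p = 0.00581), to 0.309 of its level. WT T3 CCl4 mice had 768, 606, 775 and 304 CPM, and Ehhadh rose with T3 by 1.36 ± 0.48 (adjusted p = 0.0247). In KO mice it was at 877, 687, 869 and 1222 CPM (PBS oil), 555, 384, 280 and 854 CPM (PBS CCl4), 759, 700, 924 and 817 CPM (T3 oil) and 746, 231, 303 and 251 CPM (T3 CCl4). The CCl4 differences in KO, -0.82 ± 0.48 on PBS (adjusted p = 0.194) and -1.06 ± 0.48 on T3 (adjusted p = 0.0782), were not called. Mouse 1 of KO T3 CCl4 lay within the oil range and the other 3 far below it.

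In WT oil mice, T3 lowered 2 of the 8 members, Acadm and Acadl, and raised none. Against that, 35.3% of all tested genes passed the same threshold (19% higher, 16.2% lower), and the share of higher genes among them was 54%, or 67.1% with library totals. Without overlap between groups, 4 members were lower, against 18.1% of all genes, and 1 was higher, against 20.5%. The median log2 difference of the 8 was -0.31, against -0.02 over all genes. With library totals only Acadm was called, and with a fit of the compared groups alone Hadha (-0.37; adjusted p = 0.0263) and Hadhb (-0.40; adjusted p = 0.00691) were called as well. All genes called numbered 5110 with library totals and 6173 with the compared groups alone, against 5501 in the main fit. The hepatocyte markers (7 genes, none at 0) summed to 116710 to 169083 CPM in WT PBS oil and 78236 to 106244 CPM in WT T3 oil, with 1 gene higher and 2 lower. The eighth on the list, Tf, was not matched by symbol. Pericentral markers summed to 4481 to 12929 CPM on PBS and 2283 to 3256 CPM on T3. Periportal sums were 10119 to 10977 and 6070 to 10368 CPM, and Kupffer cell (resident macrophage) sums 99.0 to 209 and 768 to 1246 CPM. In KO oil mice pericentral sums were 5976 to 6973 CPM on PBS and 5522 to 7017 CPM on T3. Periportal sums there were 10202 to 12702 and 5876 to 7691 CPM, and Kupffer cell sums 117 to 166 and 581 to 851 CPM. The part of these markers in the result was not tested.

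The same T3 comparison in other genes of the pathway was split. Of 17 other mitochondrial oxidation enzymes, 6 fell and 1 rose, with a median of -0.46. Acad10, an acyl-CoA dehydrogenase relative, fell by 1.35 ± 0.23, and Etfb, a subunit of the flavoprotein that takes electrons from the dehydrogenases, rose by 0.63 ± 0.22. Of 14 peroxisomal genes, 5 rose and 4 fell, and Abcd3, a fatty acid transporter of the peroxisome membrane, rose by 2.06 ± 0.29. Of 12 regulators, 5 rose and 1 fell, with Ppard, a nuclear receptor for fatty acids, at 2.97 ± 0.43, Acaca, which makes the CPT1 inhibitor malonyl-CoA, at 1.18 ± 0.23, and the deacetylase gene Sirt3 at -0.80 ± 0.28. Of 8 uptake and activation genes 1 rose and 1 fell, Acsl1, an acyl-CoA synthetase, by 1.14 ± 0.41. Of 5 other carnitine genes, the carnitine transporter Slc22a5 rose by 1.33 ± 0.28 and Cpt1b fell by 1.29 ± 0.37. Of 5 ketogenesis genes none was called by edgeR or DESeq2, and 0 had an unadjusted p below 0.05, with a median of -0.37.

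In WT CCl4 mice, T3 raised 4 members (Acadvl, Cpt2, Ehhadh and Cpt1a) and lowered 1 (Acadm). Against that, 41.7% of all tested genes passed (20% higher, 21.7% lower), and the share of higher genes among them was 47.9%, or 20.3% with library totals. The member median was 0.56, against -0.06 over all genes, and Acadvl alone was higher without overlap, against 16.6% of all genes. Hadha (0.37 ± 0.18), Hadhb (0.37 ± 0.18) and Acadl (0.29 ± 0.13) were not called. Hepatocyte markers summed to 50425 to 68905 CPM on PBS and 78371 to 116816 CPM on T3, with 4 of 7 higher. Of 6 periportal markers 5 were higher, from a median sum of 3122 to 8786 CPM. Kupffer cell markers summed to 186 to 337 CPM on PBS and 663 to 988 CPM on T3. Pericentral sums were 777 to 2750 and 1634 to 2313 CPM. The part of these markers in the result was not tested. Without the 2 libraries with muscle transcripts, Acadvl, Cpt2 and Acadm were called, while Cpt1a was at 0.55 (adjusted p = 0.135) and Ehhadh at 1.04 (adjusted p = 0.0720). With library totals Cpt1a (0.47; adjusted p = 0.198) and Ehhadh (1.04; adjusted p = 0.0561) were not called, and with no filter Cpt1a was not (0.77; adjusted p = 0.0573). With a fit of the compared groups alone Acadvl alone was called (Cpt1a, Cpt2, Ehhadh and Acadm had adjusted p of 0.0821 to 0.157), and DESeq2 added Acadl (adjusted p = 0.0384). Without those 2 libraries 5724 of all genes were called, with library totals 8229 and with no filter 5991. The compared groups alone called 4194 and DESeq2 6740, against 6506 in the main fit. Single mice decided several of the calls of members. Cpt1a was not called without any 1 of WT PBS CCl4 mice 1, 2 or 3 or WT T3 CCl4 mice 1, 2 or 3 (0.54 to 0.83; adjusted p 0.0509 to 0.140). Ehhadh was not called without any 1 of WT PBS CCl4 mice 1, 2 or 3 or WT T3 CCl4 mice 1 or 3 (1.04 to 1.24; adjusted p 0.0578 to 0.0856), nor Acadm without WT PBS CCl4 mouse 4 or WT T3 CCl4 mouse 2, 3 or 4 (-0.59 to -0.34; adjusted p 0.0515 to 0.189). Without mouse 4 of either group, Hadha (0.50 to 0.55) and Hadhb (0.54 to 0.55) were called, and without mouse 4 of the T3 group Acadl was (0.42; adjusted p = 0.00808), so that 2 to 7 members were called over these fits. The fits without a single mouse called 5287 to 7168 of all genes.

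Other genes of the pathway had more higher than lower calls with T3 in WT CCl4 mice. Among 17 other mitochondrial oxidation enzymes 10 rose and 1 fell, with a median of 0.65. Acad12 rose by 1.64 ± 0.30 and Etfb by 1.15 ± 0.22, while the acyl-CoA thioesterase gene Acot2 fell by 3.22 ± 0.42. Among 14 peroxisomal genes 7 rose and none fell, with Abcd3 at 3.01 ± 0.31 and Decr2, a reductase for unsaturated chains, at 2.76 ± 0.41. Among 8 uptake and activation genes 5 rose, with the transporter and synthetase gene Slc27a2 at 1.69 ± 0.29 and Acsl3 at 1.64 ± 0.31. Among 12 regulators 7 rose, with Ppard at 3.54 ± 0.44 and Acaca at 1.72 ± 0.24. Among 5 ketogenesis genes 3 rose, with Acat1, a thiolase, at 0.66 ± 0.26. Among 10 genes of mitochondrial content 9 rose and 1 fell, with the import receptor gene Tomm20 at -0.77 ± 0.19. Of 10 other PPAR-alpha targets, 3 rose and 2 fell.

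In KO mice no member passed the test with T3, on oil or after CCl4 (edgeR), where 18.7% and 2.54% of all genes were called. At an unadjusted p below 0.05 there were 0 on oil and 1, Acadm, after CCl4, and DESeq2 called 0 and 1. Among all genes called, the shares higher were 56.7% and 69.7%, or 70.6% and 44.2% with library totals. On oil the members' log2 differences ran from -0.29 to 0.25 with a median of 0.01, against 0.01 over all genes. After CCl4 the median was -0.21, against -0.03. Acadm after CCl4 was called without KO PBS CCl4 mouse 3 or KO T3 CCl4 mouse 1 (-0.94 to -0.93; adjusted p 0.00788 to 0.0237), as it was without both libraries with muscle transcripts and with library totals (-0.82; adjusted p = 0.0150). In turn, those fits called 591, 344, 1163 and 405 of all genes, against 396 in the main fit. Of the other pathway genes in KO oil mice, Etfb rose by 0.80 ± 0.22 and the thioesterase gene Acot8 by 0.80 ± 0.15, and after CCl4 the peroxisomal thiolase gene Acaa1b fell by 2.07 ± 0.48.

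**Figure D3:**
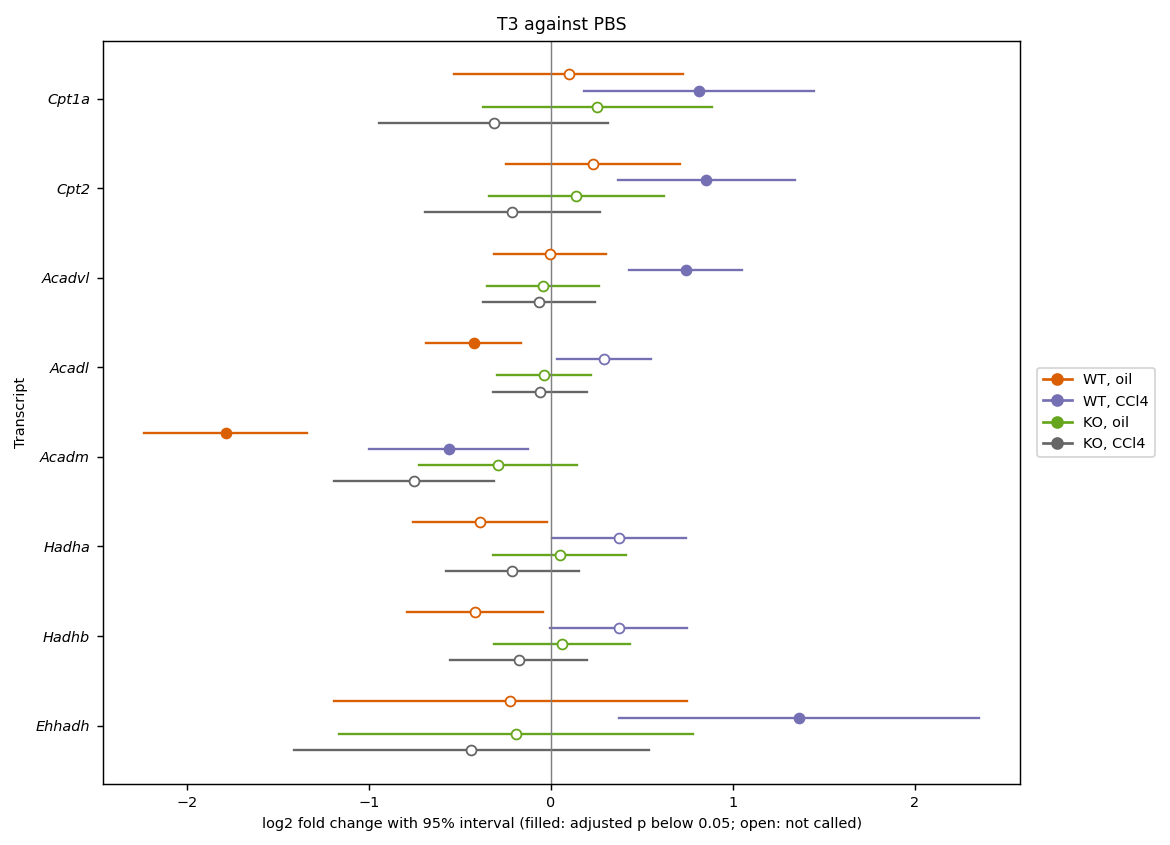
Log2 fold change of T3 against PBS (x axis) for each of the 8 genes, with its 95% interval, in WT and KO mice on oil and after CCl4; filled points had an adjusted p below 0.05. Acadm is left of 0 in all 4 settings, at -1.79, -0.56, -0.29 and -0.75, and filled in both WT settings.

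In WT PBS mice CCl4 lowered all 8 members, by 0.44 (Acadvl and Acadl) to 1.70 (Ehhadh) on the log2 scale, with a median of -0.66 against 0.04 over all genes. Of all genes, 46.2% were called and 21.6% were lower, and the share of higher genes among those called was 53.2%, or 81.8% with library totals. Hadha and Acadl, 2 members, were lower without overlap, against 17.4% of all genes. Scaling by library totals, which moved the median of all genes by 0.40 here, left Ehhadh as the only member called, with Cpt1a at -0.44, Acadm at -0.39, Cpt2 at -0.35, Hadhb at -0.19, Hadha at -0.14 and both Acadvl and Acadl at -0.04. Hepatocyte markers summed to 116710 to 169083 CPM on oil and 50425 to 68905 CPM after CCl4, with 5 of 7 lower at a median of -0.99. Lower calls covered 6 of 6 periportal and 4 of 6 pericentral markers, higher calls covered 7 of 7 markers of monocyte-derived macrophages and 3 of 7 of Kupffer cells, the resident macrophages of the liver, and the part of these in the result was not tested.

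With a fit of the compared groups alone 3 members were called (Acadm, Hadha and Hadhb; the other 5 had adjusted p of 0.0641 to 0.146), and with no filter 6, without Acadvl (-0.39; adjusted p = 0.0901) and Hadha (-0.50; adjusted p = 0.0503). All genes called numbered 4590 with the compared groups alone, 6545 with no filter and 8490 with library totals, against 7202 in the main fit. Without the 2 libraries with muscle transcripts, 7 members were called lower, all but Cpt1a (-0.57; adjusted p = 0.116). Leaving out WT PBS CCl4 mouse 2 alone left 5, with Cpt1a, Cpt2 (-0.50; adjusted p = 0.0538) and Hadha (-0.47; adjusted p = 0.0529) not called. All genes called numbered 6180 without both libraries and 5729 without mouse 2 alone. Cpt1a was also not called without WT PBS CCl4 mouse 1 or 3 or WT PBS oil mouse 2 or 3 (-0.81 to -0.56 over these fits; adjusted p 0.0557 to 0.117), nor Acadvl without WT PBS CCl4 mouse 1 or WT PBS oil mouse 2 (-0.38 to -0.35; adjusted p 0.0642 to 0.0754).

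Most of the other pathway lists also had more lower than higher calls in WT PBS mice after CCl4. Among 17 other mitochondrial oxidation enzymes 14 fell and 1 rose, with a median of -1.01. Acad10 fell by 1.56 ± 0.23 and Etfa, a subunit of the electron transfer flavoprotein, by 1.22 ± 0.19, while Acot2 rose by 1.39 ± 0.39. Among 14 peroxisomal genes 11 fell, with Hsd17b4, the other bifunctional enzyme of peroxisomes, at -1.08 ± 0.25. Among 8 uptake and activation genes 6 fell, with Acsl1 at -2.14 ± 0.42 and the fatty acid translocase gene Cd36 at -1.68 ± 0.30, and Acsl4 rose by 0.63 ± 0.25. Among 5 ketogenesis genes 3 fell, with Acat1 at -1.21 ± 0.26. Among 12 regulators 7 fell, with Sirt3 at -1.50 ± 0.28 and the receptor partner Rxra at -0.88 ± 0.20. Among 10 genes of mitochondrial content 6 fell and 1 rose, with the complex I gene Ndufs1 at -0.71 ± 0.13. Of other PPAR-alpha targets, 2 rose and 2 fell: Plin2, the coat protein of lipid droplets, rose by 1.89 ± 0.26.

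In WT T3 mice CCl4 gave no call among the members by edgeR or DESeq2 (3 had an unadjusted p below 0.05), with log2 differences of -0.11 to 0.44 and a median of 0.21 against -0.01 over all genes. Of all genes, 3.4% were called, with a share of higher genes of 49%, or 24.4% with library totals. Of the 81 genes in the 8 other pathway lists none was called either (8 at an unadjusted p below 0.05; DESeq2 called 1). In KO PBS mice, where 31.1% of all genes were called (57.1% of them higher, or 86.3% with library totals), no member was called by edgeR or DESeq2 and 0 had an unadjusted p below 0.05, from -0.82 for Ehhadh to -0.07 for Hadha, with a median of -0.15. Acadm and Acadvl were lower without overlap there, against 14.1% of all genes, at -0.32 ± 0.21 and -0.27 ± 0.15. Without the 2 libraries with muscle transcripts no member was called either. Other mitochondrial oxidation enzymes fell for 8 of 17 and rose for 1, with Etfa at -0.75 ± 0.18, and 4 of 14 peroxisomal genes fell. Hepatocyte markers summed to 126383 to 146134 CPM on oil and 55542 to 114628 CPM after CCl4 in KO PBS mice. Pericentral markers summed to 5976 to 6973 CPM on oil and 283 to 1394 CPM after CCl4, and periportal markers to 10202 to 12702 and 3361 to 8178 CPM. The part of these markers in the result was not tested.

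In KO T3 mice CCl4 lowered 1 member, Acadm, where 39.6% of all genes were called and 19.8% were lower (49.9% of those called were higher, or 64.3% with library totals). The member median was -0.43, against -0.00 over all genes. Acadm and Cpt2 were lower without overlap, against 18.6% of all genes. Without KO T3 CCl4 mouse 1, 4 members were called: Acadm, Cpt1a (-0.91; adjusted p = 0.0298), Ehhadh (-1.61; adjusted p = 0.0132) and Hadhb. Without KO T3 oil mouse 2, 3 were called: Acadm, Hadha (-0.46; adjusted p = 0.0485) and Hadhb (-0.51 to -0.47 over both fits; adjusted p 0.0292 to 0.0474). With the replicate number as a block, Ehhadh was called at -1.13 (adjusted p = 0.0474), and with a fit of the compared groups alone Cpt1a (-0.68), Cpt2 (-0.52) and Ehhadh (-1.06; adjusted p 0.00998 to 0.0224 over these 3) were called beside Acadm. All genes called numbered 6018 without KO T3 CCl4 mouse 1 and 5428 without KO T3 oil mouse 2, against 6174 in the main fit. They numbered 6155 with the block and 6324 with the compared groups alone. Other mitochondrial oxidation enzymes fell for 15 of 17, with Eci1, an isomerase for unsaturated chains, at -1.53 ± 0.21. Peroxisomal genes fell for 12 of 14, with Acaa1b at -3.47 ± 0.51, and 8 of 10 genes of mitochondrial content fell. Hepatocyte markers summed to 128957 to 171918 CPM on oil and 96786 to 126410 CPM after CCl4 there. Pericentral markers summed to 5522 to 7017 CPM on oil and 322 to 786 CPM after CCl4, and periportal markers to 5876 to 7691 and 2482 to 5053 CPM. The part of these markers in the result was not tested.

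**Figure D4:**
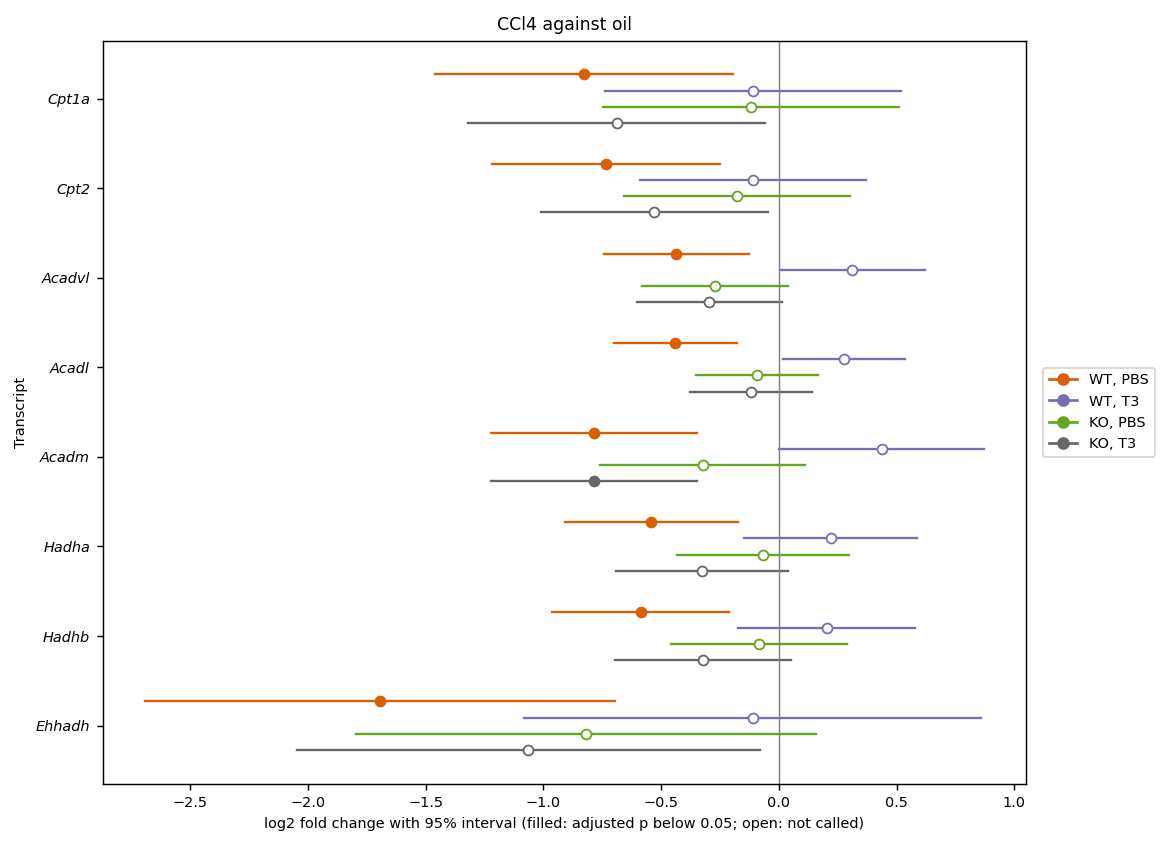
Log2 fold change of CCl4 against oil (x axis) for each of the 8 genes, with its 95% interval, in WT and KO mice on PBS and on T3; filled points had an adjusted p below 0.05. All 8 genes are filled and left of 0 in WT PBS, from -0.44 to -1.70, and only Acadm, at -0.78, is filled elsewhere.

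Knockout against wild type, on PBS and oil, gave no call among the members by edgeR or DESeq2 (0.538% of all genes were called by edgeR; 1 member had an unadjusted p below 0.05), with Acadm at -0.44 ± 0.21 (adjusted p = 0.602) the largest difference. On PBS after CCl4 no member was called by either tool, though 7 had an unadjusted p below 0.05, where 2.25% of all genes were called (53.8% of them higher, or 30.1% with library totals). All 8 estimates were at or above 0.02 there, with a median of 0.39, and Acadl alone was higher without overlap (0.31 ± 0.13), against 2.33% of all genes. Without WT PBS CCl4 mouse 4, 4 members were called: Cpt1a at 1.35 (adjusted p = 0.00530), Cpt2, Hadhb at 0.59 (adjusted p = 0.0407) and Ehhadh at 2.22 (adjusted p = 0.00201). In that fit 1748 of all 15599 genes were called, against 351 with every mouse. Cpt2 was also called without KO PBS CCl4 mouse 3 (0.88 to 1.07 over both fits; adjusted p 0.00326 to 0.0242), but no member was without both libraries with muscle transcripts. All genes called numbered 964 without KO PBS CCl4 mouse 3 and 209 without both libraries.

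On T3 and oil, KO mice had more Acadm than WT mice, the 1 member called where 16.3% of all genes were called and 7.14% were higher (43.7% of those called were higher, or 29.2% with library totals). Acadl was higher in KO without overlap, as Acadm was, against 10.9% of all genes, at 0.35 ± 0.13 (adjusted p = 0.0560; called by DESeq2 at 0.0311). On T3 after CCl4, KO mice had less Acadvl, by -0.47 ± 0.15 (adjusted p = 0.0247), the 1 member called where 22.9% of all genes were called and 12.5% were lower (45.5% of those called were higher, or 61.1% with library totals). That call was lost without KO T3 CCl4 mouse 2 or 3 or WT T3 CCl4 mouse 1, 2 or 3 (-0.44 to -0.39; adjusted p 0.0658 to 0.0973). It was also lost with library totals (-0.33; adjusted p = 0.0550), with no filter (-0.45; adjusted p = 0.0888) and with a fit of the compared groups alone (-0.46; adjusted p = 0.0602). In turn, these fits called 3557, 2918 and 4629 of all genes, against 3566 in the main fit. In that comparison 9 of 17 other mitochondrial oxidation enzymes were lower in KO and 1 was higher, with Etfb at -0.94 ± 0.22 and Acot2 at 2.0 ± 0.41. Lower in KO were also 9 of 10 genes of mitochondrial content.

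The differences between the effects were tested as interactions. On oil, the T3 response differed by genotype for Acadm alone, where 12.2% of all genes were called and 5.58% had a positive difference. After CCl4 it differed for Acadvl (-0.81 ± 0.21; adjusted p = 0.00682) and Cpt2 (-1.07 ± 0.33; adjusted p = 0.0210), both with a smaller response in KO, where 22.7% of all genes were called and 12.4% had a negative difference (45.3% of those called were positive, or 67.8% with library totals). Ehhadh (-1.80 ± 0.68; adjusted p = 0.0539) and Cpt1a (-1.13 ± 0.44; adjusted p = 0.0602) were not called by edgeR, while DESeq2 called both (adjusted p = 0.0284 and 0.0435). Cpt2 was not called with library totals (-0.78; adjusted p = 0.0544) or with a fit of the compared groups alone (-1.07; adjusted p = 0.106). Without the 2 libraries with muscle transcripts 3 members were called, with Ehhadh at -1.69 (adjusted p = 0.0475), and the replicate block gave Ehhadh -2.03 (adjusted p = 0.0233). All genes called numbered 3538 in the main fit, 3852 with library totals, 2287 with the compared groups alone and 3936 with DESeq2. Without the 2 libraries with muscle transcripts they numbered 4001. Leaving out single mice gave 1 to 7 calls among members, in fits that called 2696 to 4652 of all genes. The fit with 1 call, without KO PBS CCl4 mouse 4, called 2696, and that with 7, without WT T3 CCl4 mouse 4, called 3068. Ehhadh (-2.90 to -2.0) and Hadha (-0.76 to -0.69) were called without any 1 of KO PBS CCl4 mouse 3, KO T3 CCl4 mouse 1, WT PBS CCl4 mouse 4 or WT T3 CCl4 mouse 4. Cpt1a (-1.60 to -1.29) and Hadhb (-0.74 to -0.72) were called without any of the last 3 of these, and Acadl (-0.48; adjusted p = 0.0399) without WT T3 CCl4 mouse 4. Cpt2 was not called without KO PBS CCl4 mouse 4 (-0.95; adjusted p = 0.0546).

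In WT mice, the T3 response after CCl4 was above that on oil for 5 members, where 23.9% of all genes were called and 10.8% were higher (45.2% of those called were higher, or 10.3% with library totals). Acadm differed by 1.22 ± 0.30 (adjusted p = 0.00520), from -1.79 on oil to -0.56 after CCl4, and Acadl by 0.72 ± 0.18 (adjusted p = 0.00565), from -0.43 to 0.29. Acadvl differed by 0.75 ± 0.21 (adjusted p = 0.0130), Hadhb by 0.79 ± 0.26 (adjusted p = 0.0279) and Hadha by 0.76 ± 0.25 (adjusted p = 0.0294). With library totals Acadm alone was called, and Acadvl was at 0.26, Acadl at 0.23, Hadha at 0.27 and Hadhb at 0.31 (adjusted p 0.244 to 0.359). With no filter Acadm and Acadl were called, and Acadvl, Hadha and Hadhb had adjusted p of 0.0502 to 0.0796. The median was 0.76, and the count was 5 without the 2 libraries with muscle transcripts as well. All genes called numbered 6004 with library totals, 2831 with no filter and 3341 without those 2 libraries, against 3722 in the main fit. Hadha was not called without any 1 of 8 mice (WT PBS CCl4 1 and 2, WT PBS oil 1 and 2, WT T3 CCl4 1, 2 and 3, WT T3 oil 1; 0.69 to 0.75, adjusted p 0.0502 to 0.0625). Hadhb was not called without any 1 of 5 (WT PBS CCl4 1 and 2, WT PBS oil 1, WT T3 CCl4 1 and 3; 0.70 to 0.75, adjusted p 0.0534 to 0.0597). Without WT PBS CCl4 mouse 4 all 8 were called, with Cpt1a at 1.19 (adjusted p = 0.0206), Cpt2 at 0.99 (adjusted p = 0.00958) and Ehhadh at 2.69 (adjusted p = 6.9e-04), in a fit that called 5071 of all genes against 3722 with every mouse, and the replicate block gave Ehhadh 1.90 (adjusted p = 0.0363). In KO mice no member had such a difference by edgeR or DESeq2 (-0.57 to -0.02, with 0 at an unadjusted p below 0.05), where 3.71% of all genes were called (31% of them higher, or 11.2% with library totals). No member was called without the 2 libraries with muscle transcripts either, in a fit that called 1235 of all genes against 578 with every mouse.

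**Figure D5:**
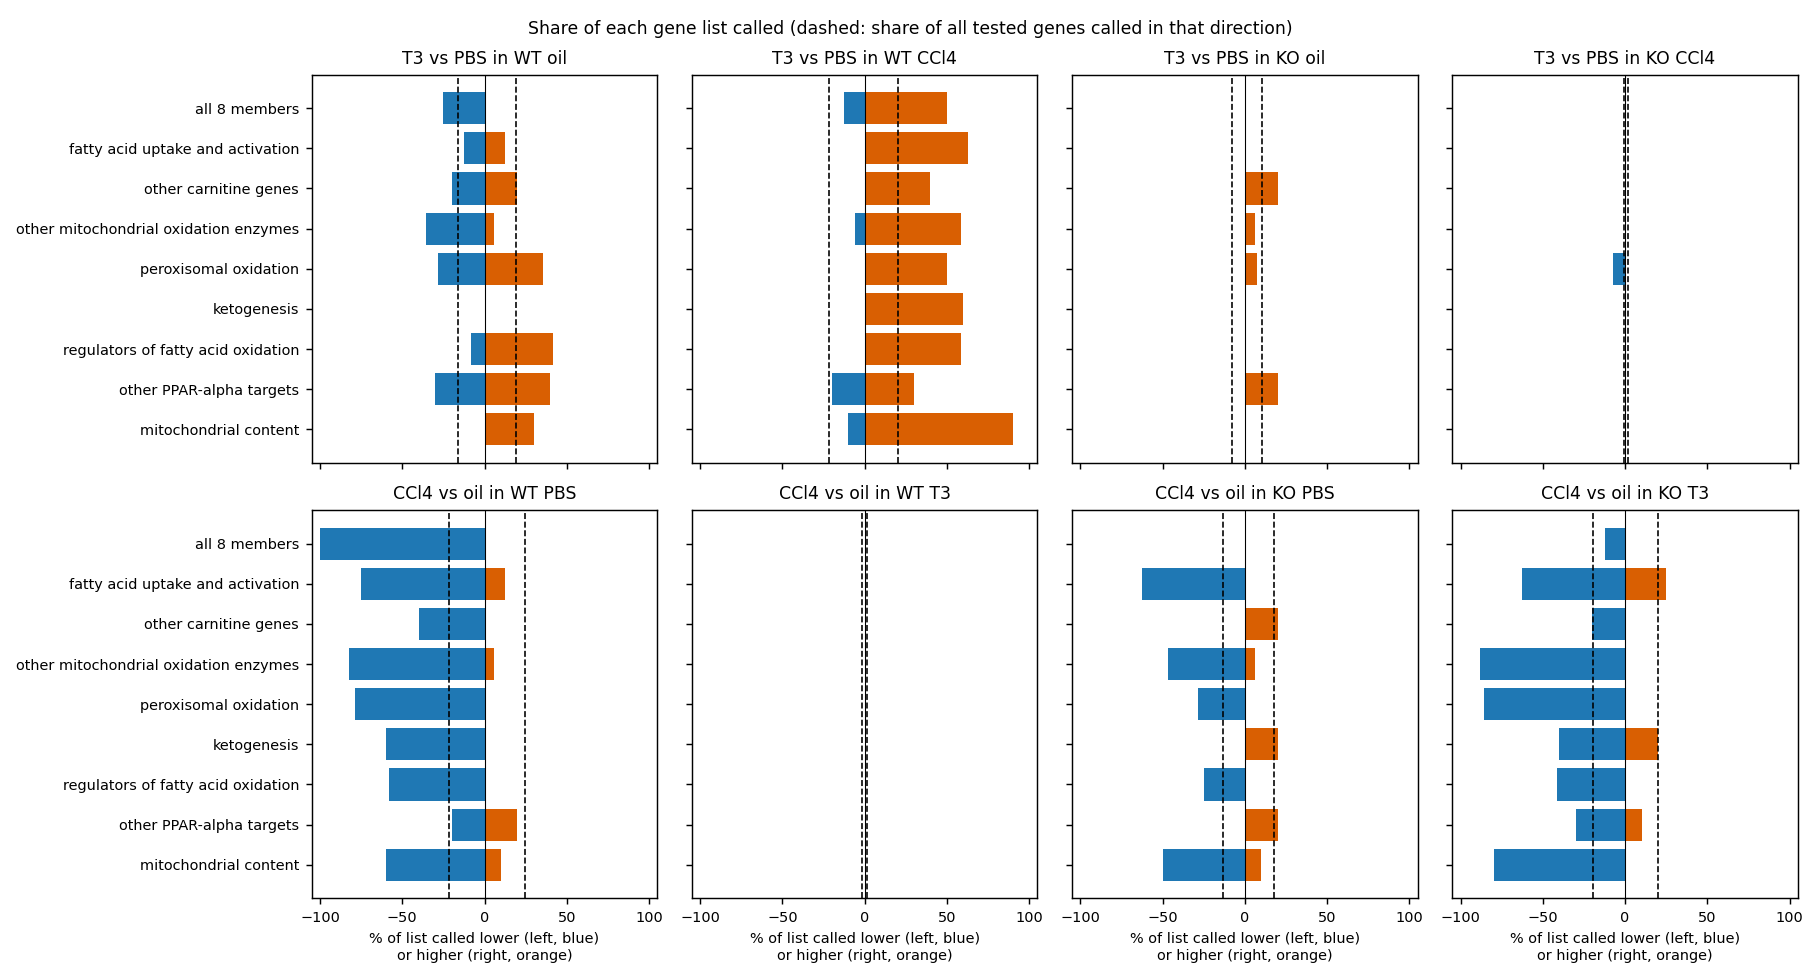
Share of tested genes called higher (to the right) or lower (to the left) in each pathway list (y axis) in 8 comparisons (panels), in percent (x axis), with dashed lines for the share of all tested genes. Lower calls fill most of the lists for CCl4 in WT PBS, where 14 of 17 other mitochondrial oxidation enzymes fell, and no list has a call for CCl4 in WT T3.

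Genes whose level followed each member over the 32 libraries were ranked by Pearson correlation of log2(CPM + 1) among 10154 genes of at least 5 CPM, as a description. Cpt1a was most like Ppara, the nuclear receptor (r = 0.878), Elmod3 (0.862) and Slc25a20, the carnitine-acylcarnitine carrier (0.850). Cpt2 was most like the peroxisomal genes Amacr (0.947), Lonp2 (0.930) and Pxmp4 (0.927). Acadvl was most like Decr1 (0.899), Slc27a2 (0.884) and Hsd17b4 (0.863), and Acadl, with the weakest likeness, like Retsat (0.777), Ech1 (0.764) and Lrp4 (0.759). Acadm was most like Idh2 (0.951), Smim13 (0.933) and Etnppl (0.921). Hadha was most like Dhrs4 (0.846). Among the genes most like Hadhb were Dhrs4 (0.83) and Etfdh (0.821), and Ehhadh was most like Lipa (0.898), Dhrs4 (0.896) and Aldh3a2 (0.891). The members themselves varied in likeness: Cpt1a with Cpt2 was at 0.85, Cpt2 with Ehhadh at 0.86 and Acadvl with Hadha at 0.78. Acadm with Cpt2 was at 0.16 over all libraries and at 0.69 after removing group means.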

How the data were processed

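The deposited table held raw counts per gene for all 32 libraries, whole numbers that the authors had not normalized, with Ensembl identifiers. The genome build GRCm38 and the tools STAR 2.7.9a, cutadapt, Trim Galore and FastQC 0.11.5 are named, per the submitters' processing notes, without their order. How reads were counted (tool, strand, annotation) is not given in the sources used here. Per the labels' protocols 2 kits, TruSeq v2 and TruSeq Stranded, were used, and the kit of each library is not stated, so kit and group cannot be told apart. Symbols and positions came from GENCODE vM21, which matched 52403 of 52636 identifiers. Promoters were RefSeq's on GRCm38.p6, for 8 of 8 members.

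Groups came from the labels, with 4 mice each. Genes passed the filterByExpr filter of edgeR (minimum count 10, minimum total 15), which kept 15599 genes. One fit over all 32 libraries (edgeR 4.0.16, limma 3.58.1, R 4.3.3; TMM factors of 0.850 to 1.35) gave 12 differences between groups and 4 interactions by the quasi-likelihood F test, with Benjamini-Hochberg adjustment over all tested genes and a threshold of 0.05. CPM are counts scaled to the TMM-adjusted library size. An interaction by genotype is the T3 response in KO minus that in WT, and one by CCl4 is the response after CCl4 minus that on oil. Ratios of counts used a pseudocount of 0.5 and exact permutation tests. Copies of transcripts were sought by alignment of at least 75 bases at 95% identity. Each member has 968 reads or more in every library, so counting error is small beside the spread between mice.

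The members and lists were chosen with earlier results of these data known. Genes named beside the members were, from each list, up to 2 called genes with the smallest adjusted p in each direction, and the 3 genes most like each member. Some of them are not reported here. Alternatives were library totals, no filter, only the compared groups, a replicate block, DESeq2 1.42.0, each library left out and, chosen after seeing the data, the 2 libraries with muscle transcripts left out.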

Additional observations from a re-analysis of the deposited data

Results flagged for a closer look

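In 12 of 64 sets of 4 mice (8 genes in 8 groups), 1 mouse stood apart from the other 3: its gap to the nearest of them, as a share of the range of the set, passed the 95% critical value of Dixon's test. Chance flags about 1 in 20 groups, a rate for separate sets, whereas these share libraries and hold correlated genes, so the count of 12 cannot be read against it. Among WT mice these were Acadl in PBS CCl4 mouse 1 (196 CPM, against 240.4 to 247), Acadm in PBS CCl4 mouse 4 (526 CPM, against 304 to 330), Ehhadh in PBS CCl4 mouse 4 (621 CPM, against 60.4 to 152), Acadvl in T3 CCl4 mouse 4 (398 CPM, against 589 to 627), Hadha in T3 CCl4 mouse 4 (216 CPM, against 375 to 393) and Hadha in T3 oil mouse 4 (330.3 CPM, against 278 to 285). Among KO mice they were Acadm (220 CPM) and Acadvl (315 CPM) in PBS CCl4 mouse 3, Cpt1a in PBS CCl4 mouse 4 (332 CPM), Acadm in PBS oil mouse 2 (558 CPM), and Acadm (298 CPM) and Ehhadh (746 CPM) in T3 CCl4 mouse 1. Of these libraries, KO PBS CCl4 mouse 3 is the only one with muscle transcripts.

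Of 32 interactions, 8 passed the test, each a difference between effects in log2 units. The T3 response in KO minus that in WT was 1.49 for Acadm on oil, and -0.81 for Acadvl and -1.07 for Cpt2 after CCl4. In WT mice the T3 response after CCl4 minus that on oil was 1.22 for Acadm, 0.79 for Hadhb, 0.76 for Hadha, 0.75 for Acadvl and 0.72 for Acadl.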

How the results depend on the processing

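Of 128 member values (8 genes in 16 comparisons), none called changed sign under any alternative run. Library totals lost 16 calls and gained 1, only the compared groups lost 11 and gained 5, no filter lost 7, DESeq2 gained 5, and leaving out the 2 libraries with muscle transcripts lost 3 and gained 2 of 64. Numbers of members called changed as follows, with the number of all genes called in the same fit in parentheses. In the main fit that number was 5501 for T3 in WT oil, 6506 for T3 in WT CCl4 and 396 for T3 in KO CCl4. It was 7202 for CCl4 in WT PBS and 6174 for CCl4 in KO T3. For KO against WT on T3 it was 2549 on oil and 3566 after CCl4. For T3 by genotype after CCl4 it was 3538, and for T3 by CCl4 in WT 3722. With library totals: T3 in WT oil 1 (5110), T3 in WT CCl4 3 (8229), T3 in KO CCl4 1 (405), CCl4 in WT PBS 1 (8490), KO against WT on T3 and CCl4 0 (3557), T3 by genotype after CCl4 1 (3852), T3 by CCl4 in WT 1 (6004). With only the compared groups: T3 in WT oil 4 (6173), T3 in WT CCl4 1 (4194), CCl4 in WT PBS 3 (4590), CCl4 in KO T3 4 (6324), KO against WT on T3 and CCl4 0 (4629), T3 by genotype after CCl4 1 (2287). With no filter: T3 in WT CCl4 4 (5991), CCl4 in WT PBS 6 (6545), KO against WT on T3 and CCl4 0 (2918), T3 by CCl4 in WT 2 (2831). With DESeq2: T3 in WT CCl4 6 (6740), T3 in KO CCl4 1 (681), KO against WT on T3 and oil 2 (2923), T3 by genotype after CCl4 4 (3936). Without the libraries with muscle transcripts: T3 in WT CCl4 3 (5724), T3 in KO CCl4 1 (1163), CCl4 in WT PBS 7 (6180), T3 by genotype after CCl4 3 (4001). The cause of these changes was not tested; fewer libraries enter the fits of the compared groups alone.

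Leaving out 1 mouse at a time gave 2 to 7 members for T3 in WT CCl4, 0 to 1 for T3 in KO CCl4, 5 to 8 for CCl4 in WT PBS, 1 to 4 for CCl4 in KO T3, 0 to 4 for KO against WT on PBS and CCl4, 0 to 1 for KO against WT on T3 and CCl4, 1 to 7 for T3 by genotype after CCl4 and 3 to 8 for T3 by CCl4 in WT. In the same order, all genes called ranged over 5287 to 7168, 165 to 591, 5729 to 7775 and 4806 to 6018. For the last 4 they ranged over 70 to 1748, 2560 to 3499, 2696 to 4652 and 2661 to 5071.

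The labels' replicate numbers do not pair mice across groups: of 112 same-numbered pairs, 21 correlated above 0.1 (r from -0.44 to 0.60), and 10 of 32 libraries correlated best with their own number. With the number as a replicate block, 2 members were called for CCl4 in KO T3, Ehhadh being added, and no other count moved by more than 1.5 times. It lost no call and gained 3.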
